A study of Mus musculus with 2 samples.

Results

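The 46 genes listed here build and run mitosis: they drive cells into division, attach chromosomes to the spindle, hold back chromosome separation until attachment is complete, and split the cell. They were chosen by name, as symbols of the GENCODE M21 gene tables, and 45 of the 46 were matched among 55536 genes. Foxm1os, an antisense transcript named after Foxm1, had no matching symbol and has no value here. All 45 matched genes were detected, which required a TPM of 1 or more in each library. Of 22028 protein-coding genes, 13382 met the same threshold. TPM is a gene's share of all transcripts, corrected for length.

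The tissue was the embryonic facial prominence, the buds of mesenchyme and epithelium that grow together into the face. It was dissected from healthy B6NCrl mouse embryos of both sexes at 12.5 days, without any treatment. Replicate 1 pooled 120 embryos and replicate 2 pooled 88, and both libraries were made from 10 ng of RNA by oligo-dT priming, with ERCC spike-in RNAs and Nextera tagmentation. Since the labels give 1 tissue and 1 age, both libraries formed 1 group and no condition could be compared. A whole dissected tissue was sequenced, so fewer dividing cells and less RNA per cell cannot be told apart.

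Entry into mitosis rests on the kinase Cdk1, which works only with a B-type or A-type cyclin and after Cdc25 phosphatases remove inhibitory phosphates. The spindle assembly checkpoint then keeps the anaphase-promoting complex, a ubiquitin ligase, inactive until every kinetochore is attached, after which securin and the cyclins are destroyed and separase cuts cohesin. Most of these genes are transcribed late in the cell cycle. The DREAM and B-Myb-MuvB-FoxM1 complexes bind many of their promoters at a cell cycle genes homology region, or CHR, often close to CCAAT boxes bound by the factor NF-Y. In the developing head, mutations of the centrosome genes Aspm, Cdk5rap2, Wdr62, Stil and Cenpj are known for primary microcephaly.

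Promoters are shown first, because most of these genes are known to be transcribed late in the cell cycle. Promoter sequence was not used in the choice by name. RefSeq promoters (build GRCm38.p6, 250 bases before to 50 after the annotated start) were held for 38 of the 45 genes, and each of the following lines gives the 120 bases before the start of 1 gene, 5′ to 3′ on its own strand. Capitals mark the CCAAT box, which reads ATTGG when it lies on the other strand, and the CHR core TTTGAA, which then reads TTCAAA. Cdk1, Ccnb2 and Top2a stand for promoters with several CCAAT boxes, Cdc20, Espl1 and Kif11 for a CCAAT box followed by a CHR core, and Nuf2 for the windows with neither. The positions are chr10:69352913-69353032 (Cdk1, minus strand), chr9:70421555-70421674 (Ccnb2, minus), chr11:99024190-99024309 (Top2a, minus), chr4:118437344-118437463 (Cdc20, minus), chr15:102296173-102296292 (Espl1, plus), chr19:37376262-37376381 (Kif11, plus) and chr1:169531465-169531584 (Nuf2, minus).
Cdk1: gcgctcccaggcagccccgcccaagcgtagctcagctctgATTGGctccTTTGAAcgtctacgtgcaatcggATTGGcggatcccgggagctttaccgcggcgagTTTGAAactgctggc
Ccnb2: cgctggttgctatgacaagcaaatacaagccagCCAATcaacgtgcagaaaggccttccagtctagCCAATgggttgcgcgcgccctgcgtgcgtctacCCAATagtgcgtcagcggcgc
Top2a: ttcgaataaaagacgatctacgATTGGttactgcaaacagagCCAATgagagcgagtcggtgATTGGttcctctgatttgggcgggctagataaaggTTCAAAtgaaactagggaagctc
Cdc20: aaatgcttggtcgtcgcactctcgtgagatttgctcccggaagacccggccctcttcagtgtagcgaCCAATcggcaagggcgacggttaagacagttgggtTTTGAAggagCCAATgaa
Espl1: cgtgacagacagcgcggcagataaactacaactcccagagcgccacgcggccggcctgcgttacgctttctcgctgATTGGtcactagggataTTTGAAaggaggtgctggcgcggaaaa
Kif11: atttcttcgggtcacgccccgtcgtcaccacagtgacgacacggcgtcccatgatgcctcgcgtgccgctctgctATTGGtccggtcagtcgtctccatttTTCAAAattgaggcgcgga
Nuf2: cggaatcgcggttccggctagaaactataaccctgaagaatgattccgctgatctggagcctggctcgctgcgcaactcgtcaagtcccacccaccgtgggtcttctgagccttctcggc

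CCAAT lay in the 300-base window of 28 of the 38 promoters (73.7%), compared with 37.9% of all 27025 promoters, 1 kept per gene symbol, and 39.2% of the promoters of detected protein-coding genes. At least 2 CCAAT boxes were found in 20 of 38 (52.6%), against 12.2% of all promoters. The CHR core TTTGAA was present in 25 of 38 (65.8%), against 18.1% of all promoters and 11.5% of those of detected protein-coding genes. Both motifs occurred together in 21 of 38 (55.3%), against 7.12% and 5.03%. The A-containing core TTTAAA, which is its own reverse complement, was found in 12 of 38 (31.6%), against 13.2% of all promoters. Motifs were searched on both strands as exact letters, and a base could belong to matches of more than 1 motif.

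Matches of the 38 promoters gathered near the start. Of 61 CCAAT boxes in the 38 promoters, 51 (83.6%) started within 150 bases before the annotated start, compared with 61.3% of the boxes in all promoters. Of 31 TTTGAA matches, 24 (77.4%) started at or after 50 bases before the start, compared with 24.8% in all promoters. Neighbouring CCAAT boxes were spaced 25 to 45 bases apart in 21 of 33 cases, with a median of 34. The spacing in all promoters was not computed, so this value has no background beside it. Top2a had 6 CCAAT boxes, the highest number among these genes, followed by Cdca8 with 4. Pttg1, Mad2l1, Birc5, Nuf2, Plk4 and Cenpj had neither CCAAT nor TTTGAA, although Birc5 and Plk4 each held 1 TTTAAA. These are matches of letters, not measured binding sites. Only the first listed start of each gene symbol was searched, so any other start is not covered. The RefSeq start lay within 50 bases of the end of the GENCODE gene for 28 of the 38 genes, and further off for the other 10.

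**Figure D1:**
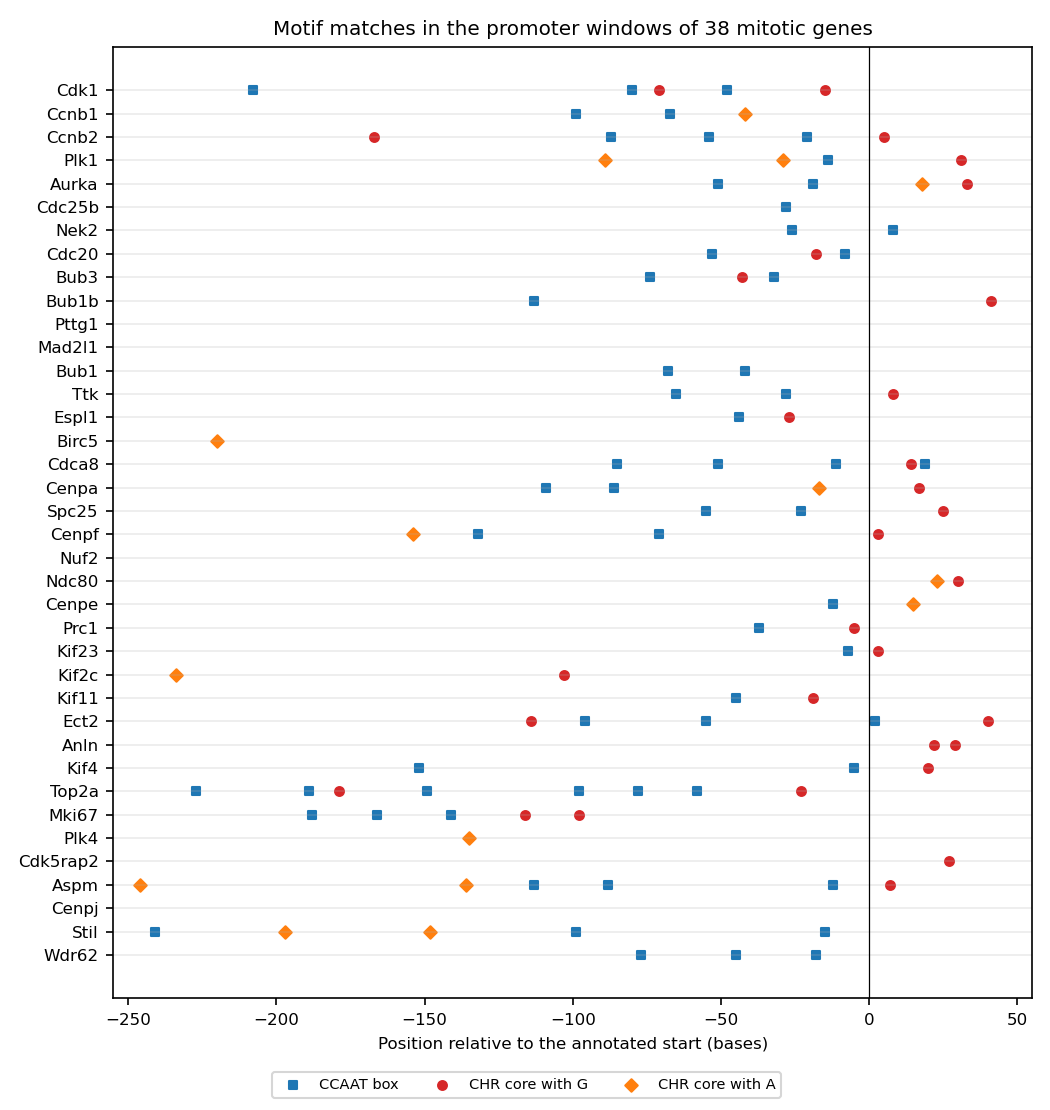
Motif matches in the promoter windows of the 38 genes with a RefSeq promoter, ordered by role and then by mean TPM; the x axis gives the first base of each match relative to the annotated start, squares are CCAAT boxes, circles the CHR core with G and diamonds the core with A. Squares gather within 150 bases before the start (51 of 61) and circles around the start (24 of 31 at or after 50 bases before it).

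By role, all 7 promoters of the cyclin and kinase group held CCAAT and 4 of 7 held TTTGAA. All 7 promoters of spindle and cytokinesis genes held TTTGAA and 5 held CCAAT. Among the 6 centrosome and centriole promoters, 3 held CCAAT and 2 held TTTGAA. Other mitotic genes, from lists described further on, had CCAAT in 57.1% and TTTGAA in 34.8% of 112 promoters. Of the 11 promoters of germline counterparts, 0 held TTTGAA but 8 (72.7%) held CCAAT, a share like that of the mitotic genes. Of the 6 promoters of multiciliated-cell genes, 0 held TTTGAA and 1 held CCAAT.

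Within the group of cyclins, mitotic kinases and Cdc25 phosphatases, Cdk1 and the cyclins were the highest. Cdk1 (chromosome 10, 69335146 to 69352938) was the highest of all 45 genes, with 292 TPM in replicate 1 and 302 in replicate 2, and ranked 447 among protein-coding genes. Ccnb1, the main mitotic cyclin, stood at 199 and 213 TPM. Ccnb2, its Golgi-associated relative, stood at 141 and 139 TPM, and Ccna2, the cyclin of S phase and G2, at 134 and 147. Both libraries thus put Cdk1 above Ccnb1 and Ccnb1 above the other cyclins, whereas Ccna2 and Ccnb2 overlapped. The 2 phosphatases were lower in both libraries. Cdc25c was at 44.7 and 51.8 TPM and Cdc25b at 38.3 and 40.9. Among the kinases of the centrosome and spindle, Plk1 reached 109.7 and 110.0 TPM and Aurka 103 and 102. Nek2, which acts in centrosome separation, was the lowest of this group at 28.8 and 31.7 TPM.

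Checkpoint genes spanned a wide range. Cdc20, which the checkpoint inhibits and which activates the anaphase-promoting complex, stood at 199 and 196 TPM. Bub3 followed at 191 and 187 TPM, above its partners Bub1b at 78.4 and 83.1 and Bub1 at 54.5 and 56.1. Mad2l1, encoding Mad2, was at 71.9 and 78.5 TPM, and Ttk, the kinase that starts checkpoint signalling, at 30.4 and 31.2. Securin and separase bind each other until anaphase. The securin gene Pttg1 stood at 82.2 and 79.1 TPM, and the separase gene Espl1 at 29.2 and 28.2. Securin mRNA was the higher of the pair in both libraries.

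The 4 genes of the chromosomal passenger complex, which corrects faulty attachments and later acts at the midzone, all exceeded 100 TPM by whole gene. Birc5, encoding survivin, was the highest at 249.8 and 244 TPM. Cdca8, encoding borealin, stood at 124 and 137, the kinase gene Aurkb at 119.6 and 116, and the scaffold gene Incenp at 102 and 103. Birc5 lay above the other 3 in both libraries, and no other group had a lowest member as high as Incenp. Counting coding transcripts only, Aurkb averaged 92.7 and Incenp 87.9 TPM, whereas Birc5 and Cdca8 stayed above 100.

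Centromere and kinetochore genes were led by Cenpa, the histone H3 variant that marks centromeres, at 274 TPM in both libraries. The 4 subunits of the Ndc80 complex, which grips microtubule ends, were not equal. Spc25 had 131 and 137 TPM and Spc24 99.2 and 91.5, whereas Nuf2 had 45.02 and 48.0 and Ndc80 itself 35.4 and 38.7. Both small subunits thus lay above both large ones in either library. Cenpf, a large kinetochore and nuclear matrix protein, was at 70.7 and 75.1 TPM, and the kinesin Cenpe at 25.6 and 28.7.

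Genes of the spindle, its midzone and cytokinesis lay within a narrower range, from 27.8 to 105 TPM on average. Prc1, which bundles antiparallel microtubules, was highest at 104 and 106 TPM. Kif20a, the kinesin that brings the passenger complex to the midzone, followed at 92.5 and 106, and Kif23, the centralspindlin motor, at 86.6 and 87.5. Tpx2, an activator of Aurora A, had 72.6 and 82.8 TPM. The motor Kif2c, which shortens microtubules, had 65.8 and 69.9, and Kif11, which pushes spindle poles apart, 56.6 and 58.4. Ect2, the activator of RhoA at the cleavage site, stood at 43.1 and 45.2 TPM, the ring scaffold Anln at 34.5 and 35.0, and the chromokinesin Kif4 at 27.4 and 28.1.

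Of the genes acting on mitotic chromosomes, the topoisomerase Top2a (227 and 225 TPM) stood above the proliferation marker Mki67 (37.1 and 39.5 TPM). Centrosome and centriole genes were the lowest group, with a median of 14.6 TPM. Plk4, the kinase that starts centriole duplication, was the highest at 50.3 and 55.2 TPM. Cdk5rap2, a pericentriolar organiser, was at 21.7 and 23.9, and Aspm, a spindle pole protein, at 16.8 and 16.4. Cenpj, which sets centriole length, stood at 13.3 and 11.8 TPM, and Stil, which builds the procentriole with Plk4, at 10.4 and 13.8. Wdr62 was the lowest of all 45 genes at 6.97 and 7.74 TPM, with 433 and 637 counts.

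**Figure D2:**
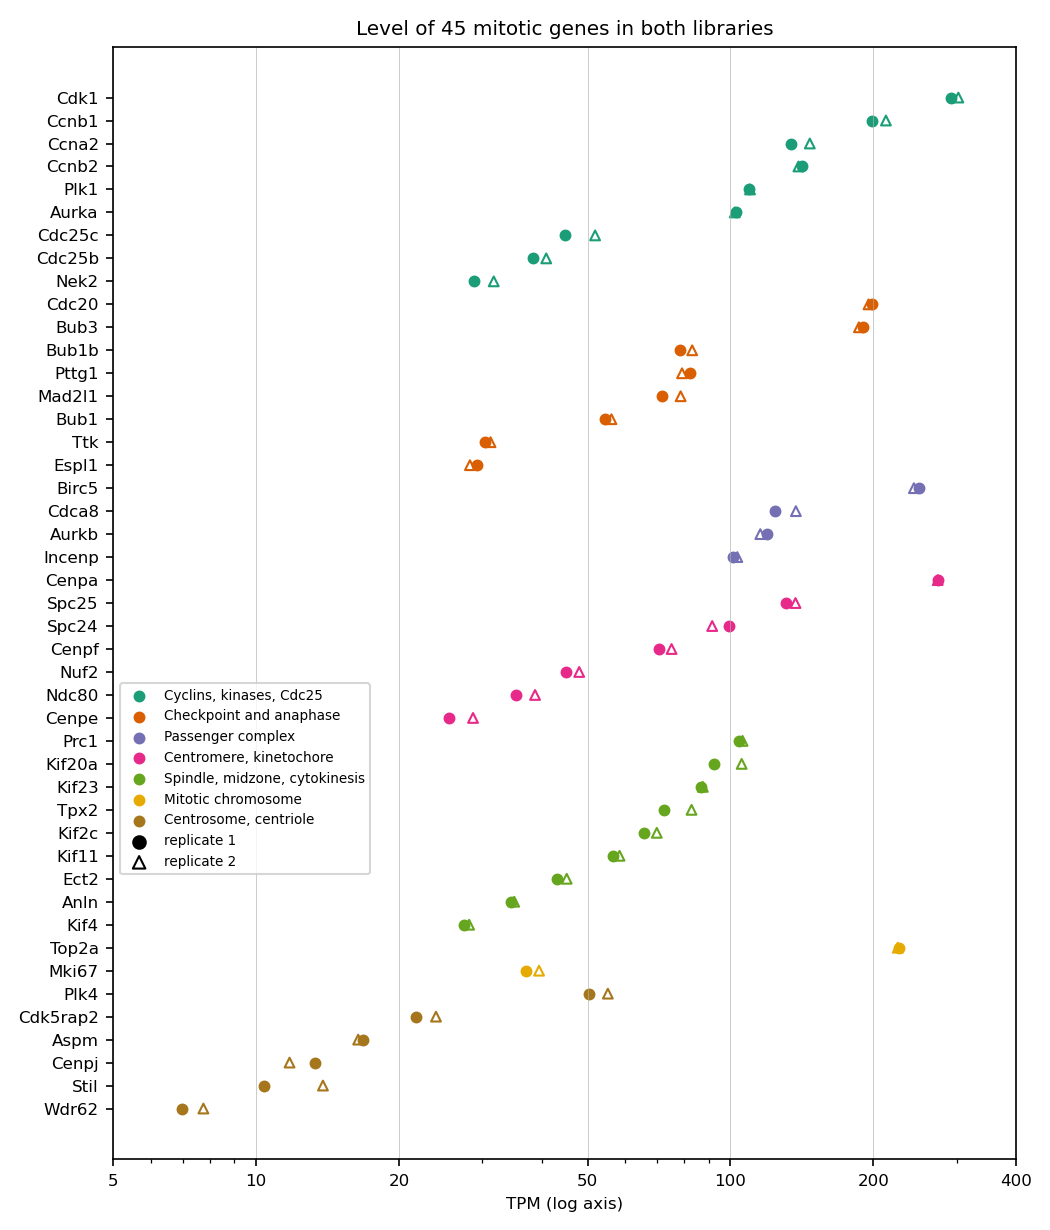
TPM (log axis) of the 45 genes in replicate 1 (filled circles) and replicate 2 (open triangles), grouped by role. Cdk1 is highest at 292 and 302 TPM and Wdr62 lowest at 6.97 and 7.74. The 5 centrosome genes named above for microcephaly have the 5 lowest means. Rows follow role, so height on the plot does not show level.

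Together the 45 genes made up 0.407% of the summed TPM of replicate 1 and 0.418% of that of replicate 2. Of these genes, 16 reached 100 TPM on average and 4 stayed under 20, and 21 lay within the top 10% of the 22028 protein-coding genes by mean TPM. The median SD was 3.25% of the mean, and the largest 20.2%, for Stil. When the genes were ordered by mean TPM, 19 of 44 neighbouring pairs overlapped between the libraries and 25 did not. The first 7 (Cdk1, Cenpa, Birc5, Top2a, Ccnb1, Cdc20 and Bub3) kept that order without overlap in the M21 tables. The margin of Ccnb1 over Cdc20 was small there, at 199.07 against 198.83 TPM in replicate 1. In the M4 tables Birc5 (263 and 257 TPM) lay above Cenpa (251 and 252) in both libraries. Ccnb1 (210.08 and 224.5 TPM) and Cdc20 (210.17 and 206.63) overlapped in M4.

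Genes with longer transcripts tended to have lower levels in this set. The rank correlation of mean TPM with the length of the leading coding transcript was −0.67 over the 45 genes, compared with −0.23 over 13359 detected protein-coding genes. This is a description across genes, and TPM itself is divided by length, so both axes share it. The 13 genes with a leading coding transcript under 2000 bases had a median of 131 TPM, and the 13 over 4000 bases a median of 27.8. Top2a was the exception among the long ones, at 226 ± 1.29 TPM (SD, n = 2).

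**Figure D3:**
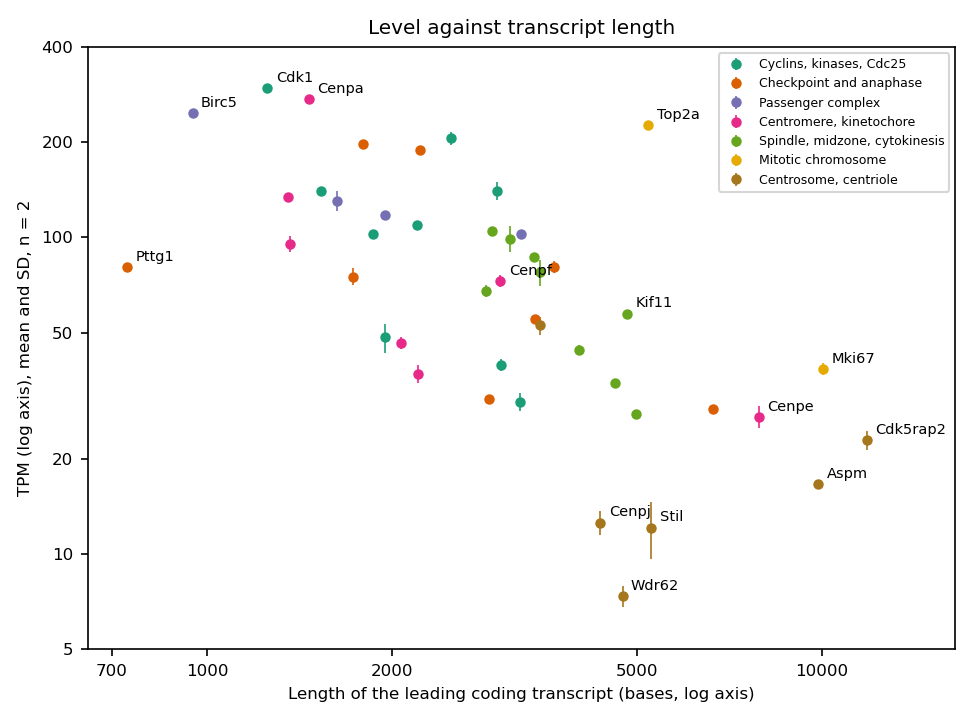
Mean TPM with SD over 2 libraries (log axis) against the length of the leading coding transcript (log axis), coloured by role. Points fall from Birc5, Cdk1 and Cenpa at the upper left to Aspm and Cdk5rap2 at the lower right, with Top2a apart at 226 TPM.

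The level of a gene did not always come from protein-coding transcripts. The median share of TPM assigned to protein-coding transcripts was 91.6%, and 22 genes had more than 90% in both libraries. In 8 genes the share stayed under 70% in both. No share over all genes stands beside these counts, so they are not shown to be particular to mitotic genes. Cenpa had the lowest coding share of the 45, with 24.0% and 23.0%. Its leading transcript was Cenpa-202, annotated as a target of nonsense-mediated decay, which carried 58.4% of the gene in replicate 1 and 58.2% in replicate 2. The coding transcript Cenpa-205 carried 22.4% and 21.3%. By expected count the decay transcript held 45.5% and 46.0%, and Cenpa-205 25.6% and 24.7%. Counting coding transcripts only, Cenpa fell from the second to the 21st place, at 64.4 TPM on average.

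Cenpa-202 has 1 internal exon that Cenpa-205 lacks, of 137 bases on chromosome 5 (mm10, 30669692 to 30669828, plus strand), inside the gene (30666777 to 30674830). It also starts 120 bases later and ends 452 bases earlier than Cenpa-205, so that the models are 1031 and 1466 bases long. The annotated stop codon of Cenpa-202 lies in the additional exon at 30669733 to 30669735. The exon is shown from its first base to this stop codon, which is in capitals, because it holds that stop.
Cenpa-202 exon: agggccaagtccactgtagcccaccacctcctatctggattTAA

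Cdk5rap2 was the other gene led by a transcript annotated for decay. Cdk5rap2-201 carried 56.2% and 59.4% of its TPM, and the full-length coding transcript Cdk5rap2-206 20.7% and 18.2%. By count the shares were 52.9% and 57.4% against 44.4% and 40.1%. Cdk5rap2-201 lacks 3 exons of Cdk5rap2-206, of 111, 77 and 219 bases, and its annotated stop codon lies at chromosome 4, 70364092 to 70364094. The models are 5248 and 11847 bases long, so these exons are only a part of their difference. Cdk5rap2 is the only member in which a pseudogene on the same strand, Ywhaq-ps3, shares exonic bases (365), and that pseudogene was listed at 8.59 and 13.7 TPM.

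In Cdk1 and Top2a, short non-coding models took far more TPM than reads. The retained-intron models Cdk1-203 and Cdk1-204, 378 and 475 bases long, carried 18.8% and 19.9% of Cdk1 TPM in replicate 1 and 20.95% and 18.1% in replicate 2, whereas their counts made up 6.07% and 8.68%, then 6.82% and 7.96%. The coding transcript Cdk1-202 held 58.1% and 57.9% of TPM but 77.7% and 78.0% of counts. Top2a-201 held 56.0% and 59.5% of TPM but 89.8% and 90.9% of counts. Over the 45 genes, the median coding share was 96.7% by count. The order of the highest genes depends on this: by coding transcripts alone Birc5 came first at 247 TPM, followed by Ccnb1 at 189, Cdc20 at 187 and Cdk1 at 178.

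Several genes divided their coding output between transcripts. Pttg1-202 and Pttg1-203 carried 56.0% and 34.0% in replicate 1 and 47.9% and 44.6% in replicate 2. Prc1 was split between Prc1-206 (35.0% and 37.1%) and Prc1-202 (24.6% and 24.0%). For Cenpf, the 3001-base model Cenpf-203 led by TPM (43.3% and 44.4%), but the 11130-base Cenpf-204 led by count (53.8% and 55.4%). The leading transcript carried under 50% of the gene in 6 genes and over 90% in both libraries in 15, again without a background over all genes. Some assignments differed widely between the libraries: Wdr62-205, a decay transcript, held 12.2% of Wdr62 in replicate 1 and 0% in replicate 2, and Ect2-207 held 0.05% and 10.7% of Ect2.

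**Figure D4:**
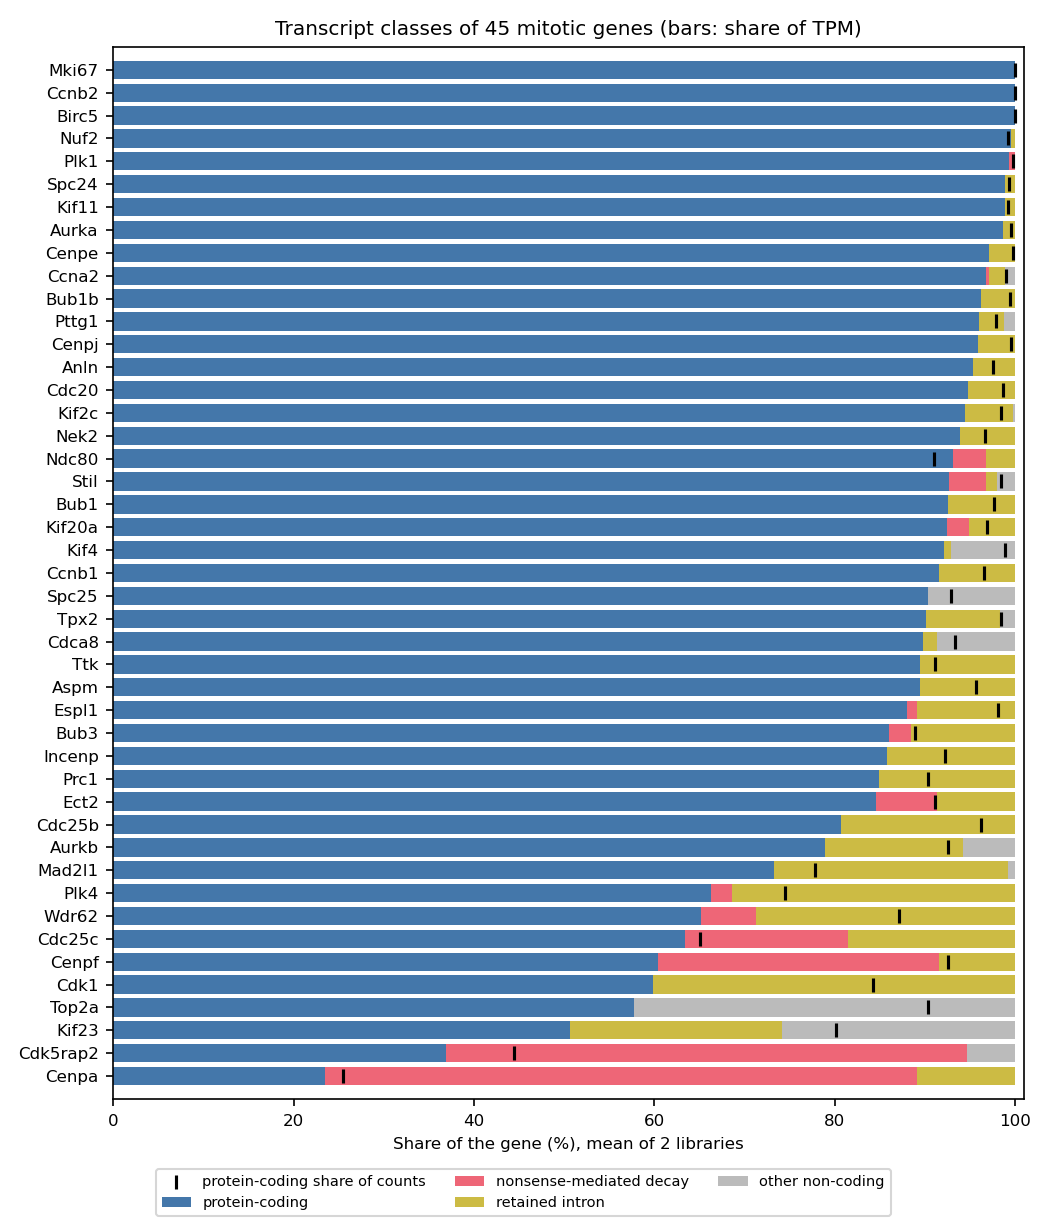
Share of each gene's TPM by transcript class, averaged over 2 libraries (bars), with the protein-coding share of expected counts (black ticks). Cenpa and Cdk5rap2 are mostly nonsense-mediated decay models, while in Cdk1, Top2a and Kif23 the ticks lie well to the right of the coding bars.

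The same reads had also been quantified by the authors with the older GENCODE release M4. Values in M4 were higher in both libraries for 32 genes, lower in both for 12 and mixed for 1, and the median difference in log2(TPM + 1) was 0.07 in either library. The median over all protein-coding genes compared was 0.06. A difference of at least 1 on the log2(TPM + 1) scale, the same way in both libraries, occurred in 0 of 45 genes, where 1.94% of 13480 protein-coding genes passed. With a threshold of 0.5, added after the values were seen, 3 of 45 were lower in M4, against 5.14% of protein-coding genes, a share near the background. Kif23 moved most, from 86.6 and 87.5 TPM in M21 to 44.1 and 45.4 in M4. Espl1 went from 29.2 and 28.2 to 19.4 and 19.5, and Incenp from 102 and 103 to 68.7 and 72.1. Each of these 3 had a single leading transcript with 100% of the gene in M4, compared with 9 to 12 transcripts in M21. That share was not particular to them. It was also 100% in genes that were higher in M4, such as Bub3, Kif11 and Mki67, and in others that were lower, such as Anln and Aspm. The cause of the differences between releases was not tested.

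Replicate 2 was compared with replicate 1 by log2 of the ratio of (TPM + 1), without a p-value, because the smallest p that an exact sign-flip test of 2 libraries can reach is 0.5. Of the 45 genes, 1 was higher by at least 0.25 and 0 were lower by as much. Among 13585 protein-coding genes with a mean TPM of at least 1, 5.89% were higher and 6.76% lower. The gene was Stil, with 10.4 TPM and 971 counts in replicate 1 against 13.8 TPM and 1692 counts in replicate 2, a log2 ratio of 0.38. Scaled by the summed gene counts, its count ratio was 1.22, with an exact 95% interval of 1.13 to 1.32 that covers counting error only. With protein-coding transcripts alone its log2 ratio was 0.24, under the threshold, while Plk4 and Wdr62 passed it at 0.29 and 0.28. The next largest by whole-gene TPM, Cdc25c and Kif20a, differed by 0.21 and 0.19.

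By counts, the interval lay above 1 for 19 of 45 genes and below 1 for 2, Bub3 and Spc24, compared with 14.7% and 15.5% of protein-coding genes. Such intervals narrow as counts rise, so these shares are not compared at like depth. The median was 75.2 TPM for the 45 genes and 20.95 for the protein-coding genes tested. The differences were small. The median log2 count ratio was 0.05 over the 45 genes and −0.0035 over all those tested, and the summed counts of the genes differed by a ratio of 1.03 (1.02 to 1.04). Ccna2 (6925 and 10759 counts) had a ratio of 1.06 to 1.12, and Cenpf (4254 and 6738 counts) one of 1.07 to 1.15. Cenpj was lower in replicate 2 by TPM, at −0.17 on the log2 scale, but nearly equal by scaled count (790 and 1125; ratio 0.91 to 1.09). Scaled to the spike-ins, which were 0.14 higher in replicate 2 on the log2 scale, the median of the 45 genes was −0.09 and 37 of 45 were lower in replicate 2. That scaling moves all genes alike: the median of the protein-coding genes tested went from 0.001 to −0.13, and 82.6% of them were lower.

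**Figure D5:**
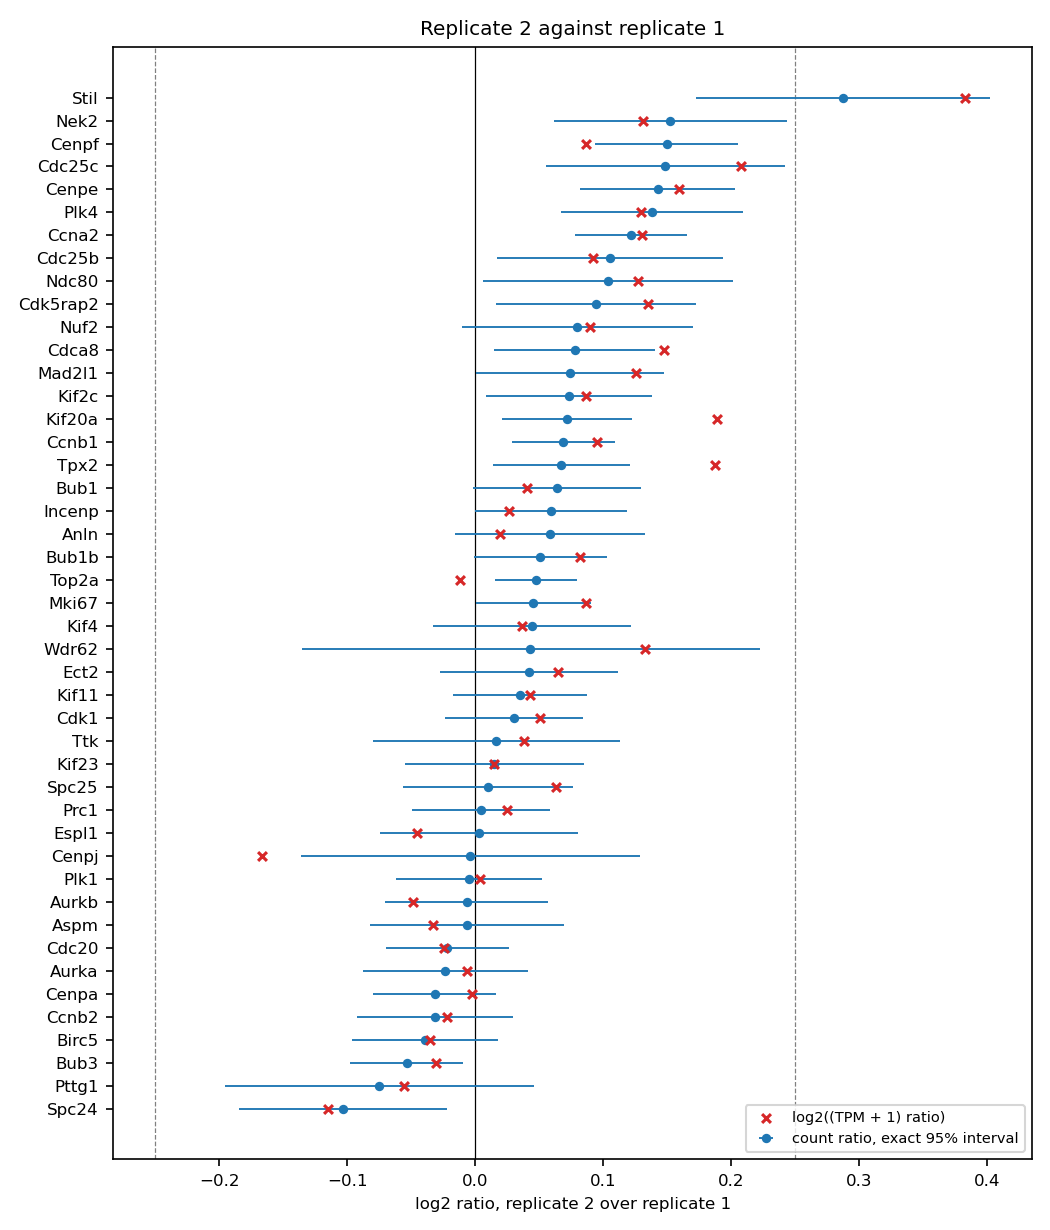
Log2 ratio of replicate 2 over replicate 1 for each gene, from counts scaled by summed gene counts (points, with exact 95% counting intervals) and from TPM + 1 (crosses); dashed lines mark 0.25 either way. Stil alone lies past the dashed line, at 0.38 by TPM, and 19 intervals lie above 0 and 2 below.

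The pools also differed in cell markers. Neuronal markers summed to 470.3 TPM in replicate 1 and 367 in replicate 2, lower for 6 of 6 genes, with Tubb3 at 158 and 115 and Dcx at 14.2 and 13.6. Muscle markers summed to 312 and 375 TPM, higher for 5 of 5. Erythroid markers summed to 9710 and 8746, with Hbb-y at 7705 and 7034 TPM and Gata1 at 1.84 and 1.38. Most of that sum was Hbb-y, and of the 7 genes 2 were higher and 5 lower in replicate 2. Facial mesenchyme markers summed to 1266 and 1136 TPM and moved both ways, 4 of 11 higher and 7 lower in replicate 2. Barx1 went from 168 to 83.9 TPM and Pitx1 from 123 to 77.4, whereas Alx1 went from 103 to 149.9; these 3 were picked after their values were seen. The part of these differences in the mitotic gene ratios was not tested. All 11 of 11 mesenchyme markers were detected, from Dlx2 at 20.2 to Msx1 at 313 TPM. So were 5 of 5 epithelial, 4 of 4 endothelial, 6 of 6 neuronal, 5 of 5 muscle and 7 of 7 erythroid markers. Macrophage markers were detected in 3 of 4 cases and germ cell markers in 1 of 4. Detection at this threshold therefore did not single out mesenchyme and epithelium. Summed counts were 28705073 and 41092194, of which spike-ins took 2.85% and 3.10%.

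Other mitotic genes, in 8 lists chosen with earlier results of these data known, were all detected (129 of 129 matched) with a median of 38.6 TPM, below the 75.2 of the 45 genes. For the detection counts of this and the following lists, the background is 13382 of 22028 protein-coding genes. Of the 129, 5 were higher by at least 0.25 in replicate 2 and 2 were lower. Among 13585 protein-coding genes tested, 5.89% were higher and 6.76% lower by as much, so such genes are not particular to these lists.

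The inner centromere list (20 of 20 detected, median 34.6 TPM) was led by Hjurp, the Cenpa chaperone, at 181 and 183 TPM, followed by Cenpx at 103 and 102 and Mis18a at 58.1 and 59.1. Cenpu (13.9 and 12.8) and Cenpb (11.6 and 9.87) were lowest. In the outer kinetochore list (16 of 16, median 36.3 TPM), Zwint stood at 238 and 237 TPM, Pmf1 at 104 and 102 and Ska2 at 76.2 and 81.7. Sgo2a (17.6 and 18.9) and Nsl1 (18.7 and 17.5) were lowest there. Neither list had a gene past 0.25 between the libraries.

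The anaphase-promoting complex and its ubiquitin-conjugating enzymes formed the list with the highest median, 116 TPM over 18 detected genes. Anapc5 (379.9 and 373 TPM), Ube2c (371 and 381) and Ube2s (355 and 329.6) led it, and Cdc27 (38.1 and 40.7) and Anapc10 (34.3 and 30.1) were lowest. The 8 condensin genes, which compact mitotic chromosomes, had a median of 104 TPM, with Smc2 at 171 and 184, Ncapd2 at 146 and 149, Ncaph2 at 134 and 138, Ncapg2 at 35.8 and 38.4 and Ncapd3 at 26.2 and 27.8. By TPM 8 of 8 were higher in replicate 2, by 0.03 to 0.11 on the log2 scale, where 50.2% of protein-coding genes were higher. By count the interval of Ncaph2 lay below 1, at 0.933 to 0.997, and 4 of 8 lay above 1. These differences are smaller than the 0.14 by which the spike-ins differed.

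Regulators of Cdk1 spanned a wide range. The Cdk-binding subunits Cks1b (392 and 375 TPM) and Cks2 (238 and 221) and the phosphatase inhibitor Arpp19 (265 and 253) led a list of 11 matched genes, whereas Mastl, the kinase that activates Arpp19, was the lowest at 7.76 and 7.96. Fam64a had no matching symbol. In the MuvB, B-Myb and FoxM1 list (10 of 10, median 23.5 TPM), Foxm1 itself stood at 34.4 and 35.2 TPM with 2100 and 3102 counts. Rbbp4, a histone chaperone shared by several complexes, was at 382 and 408 TPM, and Lin37 at 35.1 and 38.4. Lin54, the subunit that binds the CHR, was at 10.5 and 10.7 TPM. E2f8, a repressor, was at 9.33 and 11.8, higher in replicate 2 by 0.31.

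Further spindle and cytokinesis genes (30 of 30, median 40.1 TPM) were led by Tacc3 at 178 and 195 TPM, Racgap1 at 107 and 116 and Kif22 at 111 and 107. Kif14 (6.84 and 7.05) and Kifc1 (5.01 and 3.85) were lowest. Kif20b was higher by 0.27 and Haus6 by 0.25 in replicate 2, whereas Kif2a and Kifc1 were lower, each at −0.31. The other centriole and microcephaly genes (19 of 19, median 23.3 TPM) were led by Knl1 at 43.2 and 42.5, Cep63 at 41.6 and 43.7 and Nedd1 at 36.5 and 40.4, with Mfsd2a lowest at 5.50 and 5.13. Ccp110 and Cep97, which cap centrioles together, were higher by 0.27 and 0.26 in replicate 2.

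Counterparts used in meiosis or in multiciliated cells were low or not detected. Of 13 germline genes, 3 were detected, with Stag3 at 6.82 and 6.19 TPM, Rec8 at 6.47 and 6.06 and the germline cyclin Ccna1 at 2.18 and 2.42. In both libraries 3 of the 13 had 0 counts, Sycp1 and Kif2b among them, so these were not detectable at this depth. Among 7 genes of multiciliated cells outside Plk4, 0 were detected in both libraries. Foxj1 came closest with 0.80 and 1.42 TPM, from 37 and 94 counts. Ccno (0.42 and 0.62), Deup1 (0.27 and 0.44), Cdc20b (0.08 and 0.05) and Gmnc (0.05 and 0.05) were lower still. Cell cycle exit genes were present beside the mitotic ones, 10 of 11 detected. Cdkn1c, an imprinted inhibitor of cyclin-dependent kinases, had 1315 and 1303 TPM, above every mitotic gene named here, followed by Gas1 at 205 and 239.7 and Btg1 at 55.2 and 56.2. Cdkn2c had 5.83 and 7.63 TPM, a log2 ratio of 0.34, and Cdkn2a 1 count in replicate 1 and 0 in replicate 2.

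Some genes overlap a neighbour. In 9 of the 45 genes, exons overlap those of a gene on the other strand that had a TPM of at least 1. Kif20a shares 1271 exonic bases with Cdc23 (123 and 125 TPM), Prc1 911 with Rccd1 (12.5 and 11.1), Kif4 832 with Pdzd11 (93.1 and 95.1), Cdc25c 623 with Gm3550 (9.05 and 8.22) and Ccna2 510 with Exosc9 (52.6 and 57.1). The other 4 are Nek2 (298 bases), Cdca8 (232), Cdc25b (92) and Cdc20 (53). No label states whether the counting used strand, and reads from such pairs cannot be told apart. Expected counts were fractional in 12 genes, among them 7 of these 9, and whole within 0.005 in 33, among them Cdca8 and Cdc25b.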

How the data were processed

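The authors deposited gene and transcript tables for 2 libraries on mm10, made with GENCODE releases M21 and M4, per the deposited file descriptions. Neither aligner nor quantifier nor strand setting is named in the labels or headers used here. Columns hold, per the file headers of the deposited tables, expected counts (estimated reads, not always whole), TPM, posterior mean TPM, FPKM (not used here) and, for transcripts, the percent of the gene's abundance. Gene counts summed to 27887968 and 39819334, and rows that name no gene (2.85% and 3.10% of counts) stayed out of library sizes.

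The 45 genes, the related and marker lists and the thresholds were chosen with earlier results of these data known. Detection means a TPM of at least 1 in both libraries. Named genes are all members, the 3 highest and 2 lowest of each related list, those past 0.25, Foxm1, the highest and lowest marker, and overlapping genes. All 55536 M21 gene IDs matched the GENCODE annotation, which gave symbols, biotypes, transcript classes and coordinates. RefSeq promoters were matched by symbol. Of 32851 entries, the first of 300 bases for each symbol was kept, which left 27025. Ratios of replicate 2 over replicate 1 used log2(TPM + 1), which understates differences of low genes. Exact conditional 95% intervals used rounded expected counts and the summed gene counts. They cover counting error only, because amplified reads were counted without molecular identifiers. With 1 library on each side of a ratio, no p-value was given. Scaling factors came from edgeR 4.0.16 in R 4.3.3, the rest from Python 3.11.15 with scipy 1.17.1. On counts simulated for 13585 genes, 95.5% of intervals held the true ratio, and 91 of 100 genes raised and 98 of 100 lowered 1.5-fold were called. The simulated counts varied by counting error alone, which is what the interval assumes. That check therefore covers the calculation, not the spread between real libraries. Alternatives were another pseudocount, the M4 tables, posterior mean TPM, TMM, RLE and spike-in scaling, no low-value filter, and each library alone. Coding transcripts alone were added after the data were seen. A planned search of protein sequences was not run.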

Additional observations from a re-analysis of the deposited data

How the results depend on the processing

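All 45 genes remained detected at a minimum TPM of 5, in the M4 tables, by posterior mean TPM and in either library alone. Their median of 75.2 TPM was 56.8 when only protein-coding transcripts were counted, an alternative chosen after seeing the data, and 71.9 to 78.5 with either library left out. The median log2 ratio of replicate 2 over replicate 1, 0.051, was 0.0630 in the M4 tables, 0.0623 under TMM and 0.0615 under RLE scaling, and −0.0856 under spike-in scaling. The median over all protein-coding genes tested was 0.00098 as reported and −0.126 under spike-in scaling, which shifts all genes alike. The number of genes past 0.25, 1 as reported, was 3 under spike-in scaling (Stil, Spc24 and Cenpj) and 2 with protein-coding transcripts only (Plk4 and Wdr62). Stil kept its direction under all alternatives run, between 0.24 and 0.41, and passed 0.25 in all but the protein-coding one. The median share of the leading transcript, 71.9%, was 92.7% in the M4 tables and 72.3% to 73.3% with either library left out. The number of genes led by a transcript under 50% was 4 in M4 and 5 to 7 with either library left out, compared with 6. The cause of these shifts was not tested. No paired analysis was possible because both libraries belong to 1 group, and a ratio between libraries cannot be computed with either left out. Wdr62 had the fewest counts, 433 and 637, and its count ratio an interval of 0.911 to 1.17.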
